A study of Mus musculus with 4 samples.

Results

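Accessibility at genes of the blood and macrophage lineage was examined in bone mesenchymal stem cells (MSCs) of old and young mice, as a reading, sample by sample, of blood cells in these cultures. The 10 genes were Ptprc, Spi1, Csf1r, Adgre1, Cd68, Tyrobp, Fcer1g, Lyz2, Ikzf1 and Cd14, out of 21911 protein-coding genes of the GENCODE vM21 annotation (GRCm38, the assembly that mm10 names). Every peak that overlapped one of these genes or the 5 kb upstream of its start was taken, which gave 21 of the 117282 peaks. The rule uses positions of genes and peaks alone, not their values.
ATAC-seq, in which a transposase cuts and tags open DNA, had been performed on 2 samples from old mice (18 to 22 months of age) and 2 samples from young mice (3 to 5 months of age), all labelled as mesenchymal stem cells. Both groups had been kept at 2% O2 in αMEM with serum and antibiotics, so the low oxygen is shared by old and young samples. For its oxygen comparison, a separate experiment, the study describes C57BL/6N mice and a sort for cells without the blood markers CD45 and Ter-119 and with CD140a and Sca-1. Strain, sex, sorting and the number of animals behind each old or young sample are not given in the sources used here, and p-values therefore measure the spread between samples, which may be technical.
Ptprc encodes CD45, the phosphatase carried on the surface of nearly all nucleated blood cells, and Spi1 and Ikzf1 encode PU.1 and Ikaros, transcription factors that direct myeloid and lymphoid development. Macrophages depend on CSF1R, the receptor for colony-stimulating factor 1, and carry ADGRE1, CD68, CD14 and lysozyme, while TYROBP and FCER1G are signalling adaptors that pair with activating receptors of myeloid cells. Bone marrow is rich in such cells, and macrophages can stick to the plastic of a stromal culture, so that these genes are used to look for blood cells among MSCs.

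Sequence upstream of the start is shown for 4 of these genes because their promoters differed in whether a peak covered them and in base composition. The windows run from 250 to 51 bases before the RefSeq start (GRCm38.p6), in the sense of the gene, and capitals mark GAGGAA, a core sequence that PU.1 can bind (searched on both strands as GAGGAA and TTCCTC). The windows are chr1:138175356-138175555 on the minus strand for Ptprc, chr11:69666221-69666420 on the minus strand for Cd68, chr10:117282323-117282522 on the minus strand for Lyz2 and chr11:11685675-11685874 on the plus strand for Ikzf1.
Ptprc: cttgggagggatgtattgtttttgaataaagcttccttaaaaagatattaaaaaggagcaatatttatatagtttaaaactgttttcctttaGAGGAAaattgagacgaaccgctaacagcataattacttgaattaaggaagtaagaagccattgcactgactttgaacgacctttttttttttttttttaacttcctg
Cd68: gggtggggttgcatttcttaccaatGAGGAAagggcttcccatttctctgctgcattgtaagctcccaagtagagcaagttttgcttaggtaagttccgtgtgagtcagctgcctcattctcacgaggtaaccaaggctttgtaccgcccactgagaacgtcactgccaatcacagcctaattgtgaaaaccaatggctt
Lyz2: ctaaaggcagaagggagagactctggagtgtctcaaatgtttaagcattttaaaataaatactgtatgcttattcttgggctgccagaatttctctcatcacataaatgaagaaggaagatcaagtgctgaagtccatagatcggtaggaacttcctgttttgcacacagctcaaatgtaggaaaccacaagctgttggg
Ikzf1: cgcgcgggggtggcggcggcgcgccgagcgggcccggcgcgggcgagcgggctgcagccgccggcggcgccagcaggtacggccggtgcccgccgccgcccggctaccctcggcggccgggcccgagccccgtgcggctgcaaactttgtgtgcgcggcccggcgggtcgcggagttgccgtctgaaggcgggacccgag
No base of the Ptprc window lay inside a peak, whereas all 200 bases of the Cd68, Lyz2 and Ikzf1 windows did. The core sequence stood at -158 in Ptprc and at -225 in Cd68, in 2 of the 5 genes with a window, and it was found in 18.8% of the 32851 promoter windows of the table. In the Fcer1g window, which had no core sequence, 0 bases lay inside a peak. G and C made up 83.0% of the Ikzf1 window, which held 39 CpG sites, against a median of 51.5% and 4 CpG sites over all promoters of the table. The Ptprc window had 30.5% and 3 CpG sites, and the Lyz2 window 40.5% and 1 CpG site. The RefSeq table held 5 of the 10 genes, and Spi1, Csf1r, Adgre1, Tyrobp and Cd14 were not among them.

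A peak was called an own-promoter peak when it lay within 1 kb of a start of a protein-coding transcript of the gene. By this measure 7 of the 10 genes (70.0%) had an open promoter, namely Spi1, Csf1r, Cd68, Fcer1g, Lyz2, Ikzf1 and Cd14, and 69.9% of all 21911 protein-coding genes did. Ptprc, Adgre1 and Tyrobp had none. The peak list is common to the 4 samples, so a missing peak is missing for all of them, and no level below the threshold of the peak caller can be read from the table.
Adgre1, which encodes the classic surface marker of mouse macrophages (chr17:57358691-57483527, plus strand), had 0 peaks in its window of 129837 bp. Genes with windows within a factor of 1.25 of that length had a median of 9 peaks, and 3.23% of 1145 such genes had none. The nearest peak lay 22291 bp from the gene. Tyrobp (chr7:30413760-30417585, plus strand) also had 0 peaks, in a window of 8826 bp, but 38.1% of 3456 genes with similar windows had none. Its nearest peak lay 3116 bp from the gene and 6913 bp from its start. Of the 10 genes, these 2 were the ones without any peak, against 21.2% of all protein-coding genes. Adgre1 had the longest window of the 10.
Per megabase of window, the 10 genes held 45.9 peaks against 65.2 peaks for all protein-coding genes. Related lists described below lay on both sides, with 73.8 for other macrophage and monocyte genes and 27.3 for genes shared by leukocytes. Spi1 had 7 peaks where genes of similar windows had a median of 3, and Csf1r had 4 where the median was 3. Ptprc had 3 peaks against a median of 8, and Ikzf1 2 peaks against a median of 6. The short genes Cd68, Fcer1g and Lyz2 had 1 peak each and Cd14 had 2, against a median of 1.

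**Figure D1:**
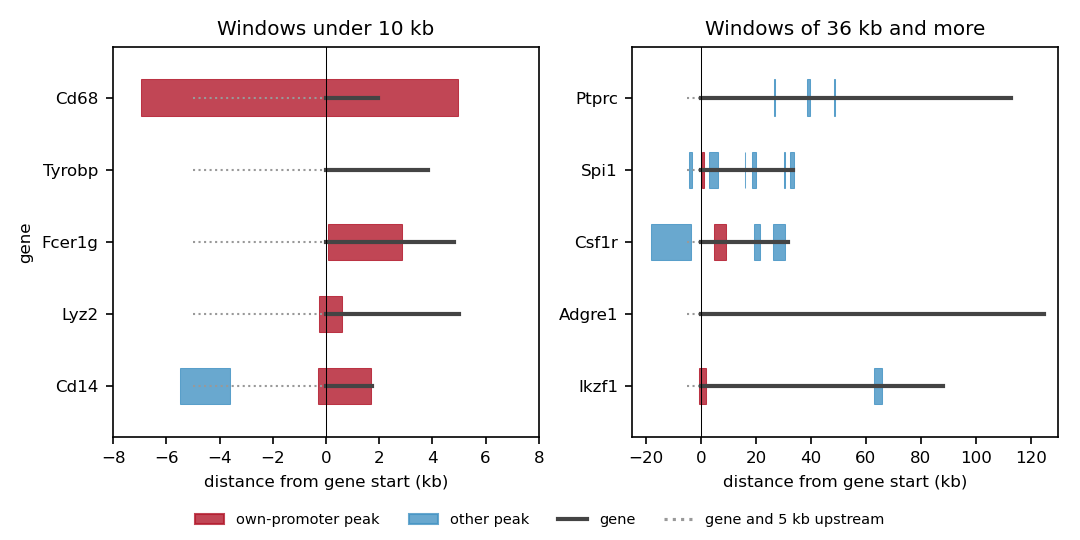
Peaks in the windows of the 10 genes, plotted by distance from the gene start in kb with the direction of transcription to the right, in separate panels for short and long windows. Red boxes mark own-promoter peaks, blue boxes other peaks, dark lines the genes and dotted lines the window of gene and 5 kb upstream; Adgre1 and Tyrobp have no box, and the 3 boxes of Ptprc lie 26.7 to 48.6 kb into the gene.

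The values are counts per peak scaled to a library total of 10000000 and divided by relative log expression (RLE) factors, so that the typical peak is equal in all samples. They are not divided by the width of the peak, and levels of different genes are therefore compared per kb of peak only. The library totals were between 28259470 and 32559794 counts, at which 3 counts correspond to a value between 0.921 and 1.06, and all peaks together held 43.8% of the library total in old replicate 1 and 50.3% to 62.9% in the other samples. None of the 21 peaks was at or under 3 counts in any sample. In a bulk culture, fewer cells of a type and less opening per cell cannot be told apart.

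Among the surface proteins, Ptprc had no called peak near its start. The peak nearest to any of its starts lay 15295 bp away and outside the gene, and its 3 peaks were intronic. At the peak 39.2 kb into the gene (chr1:138136001-138137000), the RLE-scaled values were 20.7 and 17.7 in old replicates 1 and 2 and 25.9 and 26.7 in young replicates 1 and 2. The old samples lay below the young ones there, with a log2 fold change of -0.44 (SE 0.25, limma adjusted p = 0.389). Per kb, this peak was above 77.9% of all peaks, the highest position of the 3. At 48.6 kb (chr1:138126801-138127400) the values were 11.2 and 6.40 in old and 7.63 and 3.86 in young samples, from 13 to 26 counts, and the groups overlapped. At 26.7 kb (chr1:138148701-138149300) they were 6.02, 5.79, 4.98 and 6.83, and the young samples enclosed the old ones.
Cd14, which encodes the co-receptor for bacterial lipopolysaccharide, was the most open of the 7 promoters per kb. Its own-promoter peak (chr18:36725101-36727100), which covered the whole coding sequence of this short gene and its start, had values of 73.6 and 93.0 in old and 66.7 and 67.4 in young samples. Both old samples were above both young samples, although the limma adjusted p was 0.457 for a log2 fold change of 0.30 (SE 0.19). Per kb of peak it was above 68.0% of the 16205 promoter peaks of protein-coding genes. The upstream peak at -4.6 kb had values of 14.6, 16.8, 14.6 and 14.5, so that old replicate 2 stood above 3 nearly equal samples.

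Of the transcription factors, Spi1 carried the most peaks, and its promoter peak was narrow. The own-promoter peak (chr2:91082701-91083400), 700 bp wide and starting 311 bp inside the gene, had values of 10.8 and 8.54 in old and 13.9 and 8.90 in young samples. The values of old and young samples overlapped (log2 fold change -0.20, SE 0.32, limma adjusted p = 0.805). Per kb it was above 24.8% of promoter peaks, and in width it stood at the 4.26th percentile of promoter peaks.
Of the other Spi1 peaks, 3 held more counts than the promoter in every sample. The intronic peak at 4.6 kb (chr2:91085401-91088500), 3100 bp wide, had values of 30.6, 37.5, 40.1 and 34.7. The peak at 33.1 kb over the last exon had values of 32.7, 29.0, 32.2 and 27.0, and both peaks overlapped between the groups. At 19.2 kb (chr2:91100901-91102200) the values were 27.1 and 34.8 in old and 20.9 and 25.2 in young samples, without overlap (log2 fold change 0.40, SE 0.24, limma adjusted p = 0.431). Old values were likewise above young values at 30.4 kb (5.16 and 6.40 against 2.32 and 4.75) and at -3.8 kb upstream (15.9 and 10.7 against 10.6 and 9.50), with limma adjusted p-values of 0.469 and 0.612. The 200-bp peak at 15.9 kb had the fewest counts of the 21 peaks, 4, 5, 5 and 10, though several wider peaks were lower per kb.
The Ikzf1 own-promoter peak (chr11:11684201-11686600), which lay over an untranslated exon, had values of 19.4 and 20.1 in old and 26.2 and 22.0 in young samples. Per kb, at 9.28, it was the least open of the 7 promoters and above 8.25% of promoter peaks. The peak at 64.4 kb over a coding exon (chr11:11748101-11750700) was higher per kb, at 23.9, with values of 65.4 and 46.0 in old and 69.0 and 66.2 in young samples. At both peaks the old samples lay below the young ones, with log2 fold changes of -0.27 (SE 0.25) and -0.30 (SE 0.21) and limma adjusted p-values of 0.633 and 0.512. Over all peaks of chromosome 11 the median log2 fold change was 0.098, and relative to it the Ikzf1 peaks stood at -0.37 and -0.39.

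The receptor gene Csf1r held the peak with the largest difference between old and young samples. This intronic peak, 20.4 kb from the gene start (chr18:61119901-61122000), had values of 17.6 and 29.3 in old and 12.9 and 11.0 in young samples. Its log2 fold change was 0.88 (SE 0.29), with an unadjusted p of 0.0071 and a limma adjusted p of 0.134, so it did not pass the threshold of 0.01. Old replicate 2 was 1.66 times as high as the next sample. Without old replicate 1 the log2 fold change was 1.23 and the limma adjusted p 0.00143, but the same fit called 10356 of all 117282 peaks (8.83%). Per kb the peak was weak, above 9.36% of all peaks.
The own-promoter peak of Csf1r (chr18:61105101-61109500), 4400 bp wide, had values of 77.5 and 119 in old and 88.6 and 89.3 in young samples, with both young samples between the old ones. Per kb it was above 38.3% of promoter peaks. The peak at 28.3 kb over coding exons had values of 58.5, 50.9, 52.7 and 38.6, and old and young samples overlapped. The widest peak, 14500 bp (chr18:61082401-61096900), had values of 183, 172, 162 and 166. It also covered the 3′ end of Pdgfrb, the gene of a platelet-derived growth factor receptor of stromal cells, and what share of its value belonged to Csf1r was not tested.
Of the adaptors, Tyrobp had no peak, and Fcer1g had an own-promoter peak of 2800 bp that lay 7 bp from the nearest of its annotated starts (chr1:171231501-171234300). Its values were 48.6 and 50.9 in old and 55.4 and 61.4 in young samples. The old samples lay below the young ones (log2 fold change -0.23, SE 0.20, limma adjusted p = 0.614), and per kb the peak was above 34.3% of promoter peaks.

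Cd68, which encodes a lysosomal glycoprotein, lay within a peak of 11900 bp (chr11:69661201-69673100) that also held the starts of Eif4a1, a translation initiation factor, and Mpdu1, a gene of glycosylation. Its values were 326 and 478 in old and 458 and 399 in young samples, with both young samples between the old ones. The log2 fold change was -0.11 (SE 0.15, limma adjusted p = 0.759), and its direction depended on the old sample: it was 0.16 without old replicate 1 and -0.38 without old replicate 2, the latter with a limma adjusted p of 0.00357 in a fit that called 1.43% of all peaks. Relative to the median of chromosome 11, the log2 fold change with all samples was -0.21. Over all peaks of that chromosome, the median log2 difference from the mean of the young samples was 0.021 for old replicate 1. It was 0.18 for old replicate 2. What share of the value of this peak belonged to Cd68 was not tested.
Lyz2, the lysozyme gene of macrophages and granulocytes (chr10:117277331-117282321, minus strand), had a narrow own-promoter peak of 900 bp (chr10:117281701-117282600) with values of 18.1 and 15.6 in old and 15.3 and 13.7 in young samples. Both old samples were above both young samples by small margins (log2 fold change 0.20, SE 0.27, limma adjusted p = 0.76). Per kb it was above 29.6% of promoter peaks. Lyz2 has a close copy, Lyz1, and reads that match both genes may have been lost or misplaced, which makes this value uncertain.

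**Figure D2:**
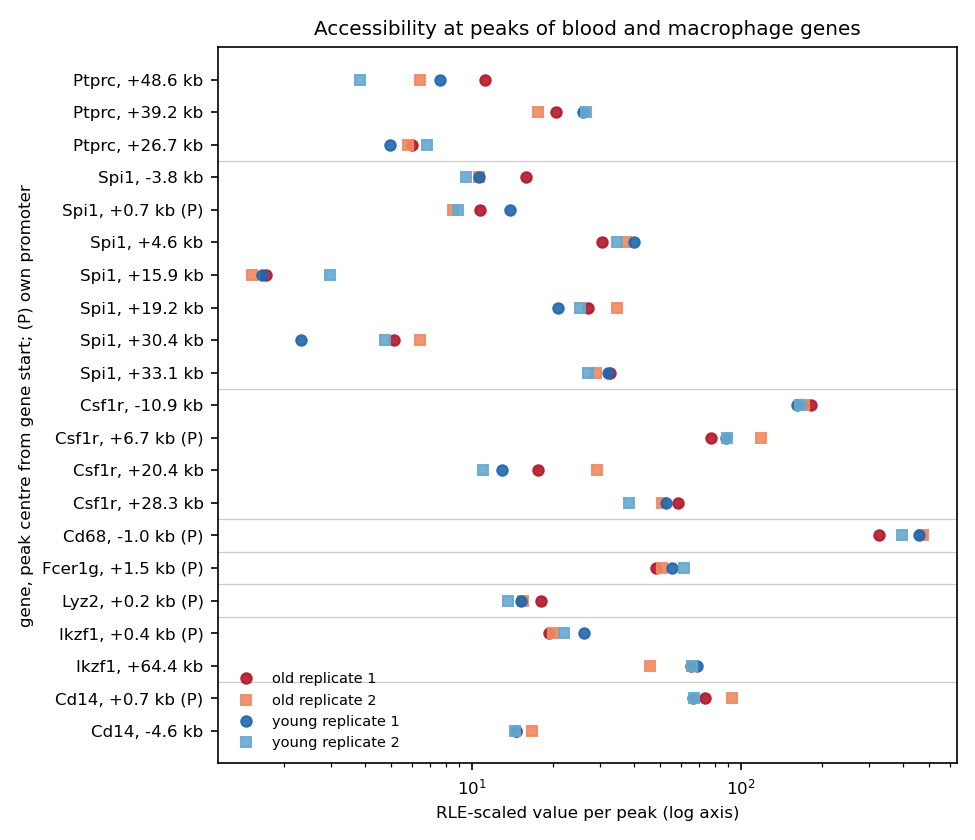
RLE-scaled value of each of the 21 peaks in the 4 samples, on a log axis, with red and orange for old and blue for young samples; (P) marks the own-promoter peak. The Cd68 peak lies at 326 to 478 and the Spi1 peak at 15.9 kb at 1.52 to 2.97, and old and young points do not overlap in 12 of the 21 rows.

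Read sample by sample, the highest values of the 21 peaks were spread over all 4 cultures. Old replicate 1 had the highest value in 6 peaks, old replicate 2 in 7, and young replicates 1 and 2 in 4 each. Over all peaks these samples were highest in 23.3%, 31.1%, 20.4% and 25.1%. The lowest value fell in old replicate 1 in 5 peaks, in old replicate 2 in 4, in young replicate 1 in 5 and in young replicate 2 in 7, against 23.6%, 31.2%, 21.3% and 23.9% of all peaks. By value per kb, the median position of the 21 peaks among all peaks of the same sample was the 57.4th percentile in old replicate 1, the 45.6th in old replicate 2, the 46.5th in young replicate 1 and the 44.3rd in young replicate 2. Old replicate 1 thus had the highest median position, but the 21 peaks made up the smallest share of its library total, 0.00865% against 0.0126% in each other sample. It was also the sample with the smallest share of its library in peaks.
Together the 21 peaks held 0.0238% of the counts in autosomal peaks in old replicate 1 (95% Wilson interval 0.0229 to 0.0247), 0.0272% in old replicate 2 (0.0264 to 0.0280), 0.0257% in young replicate 1 (0.0249 to 0.0266) and 0.0238% in young replicate 2 (0.0231 to 0.0246). Both young samples lay between the old ones. The intervals cover counting error only, and old replicates 1 and 2 differed by more than their intervals. Without the wide Cd68 peak the shares were 0.0165% and 0.0168% in old and 0.0158% and 0.0152% in young samples. Without the Cd68 peak and the peak over Pdgfrb they were 0.0124% and 0.0130% in old and 0.0122% and 0.0116% in young samples. In both of these sums the old samples were above the young ones as shares of the counts in autosomal peaks, but not as shares of the library total. Without the Cd68 peak, the Wilson intervals of old and young replicate 1 overlapped (0.0157 to 0.0173 and 0.0151 to 0.0164). Those of old and young replicate 2 did not (0.0161 to 0.0174 and 0.0146 to 0.0158). The same held without both peaks (0.0117 to 0.0131 and 0.0117 to 0.0128, then 0.0125 to 0.0136 and 0.0111 to 0.0121). Of the library total, the shares without the Cd68 peak were 0.00600% and 0.00777% in old and 0.00772% and 0.00802% in young samples. Without both peaks they were 0.00451% and 0.00604% in old and 0.00599% and 0.00612% in young samples. An exact permutation test of 2 samples against 2 cannot give a p below 0.33.

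Between old and young cultures, none of the 21 peaks passed the threshold (limma with RLE scaling, Benjamini-Hochberg adjusted p under 0.01 over all peaks), and limma-voom on recovered counts also called 0. Of all 117282 peaks, 66 passed, or 0.0563%, of which 30 were higher (0.0256%) and 36 lower (0.0307%) in old MSCs. On the values as deposited, 52 were higher (0.0443%) and 1333 lower (1.14%), again with none of the 21 among them. At an unadjusted p under 0.05, 1 of the 21 peaks was found, the Csf1r peak at 20.4 kb, against 16.4% of all peaks. Old and young values did not overlap in 12 of the 21 peaks, against 47.5% of all peaks. They were higher in old samples in 8 (23.2% of all peaks) and lower in 4 (24.2% of all peaks).
The 8 were 3 peaks of Spi1, 2 of Csf1r, 2 of Cd14 and the Lyz2 promoter. Some of these were near ties. At the Cd14 peak at -4.6 kb the lower old value was 14.63 against 14.60 in the higher young sample. At the Spi1 peak at -3.8 kb it was 10.67 against 10.62. The 4 were the 2 peaks of Ikzf1, the Fcer1g promoter and the Ptprc peak at 39.2 kb. A log2 fold change above 0 was found in 13 of the 21 peaks and in 50.1% of all peaks. The median was 0.098 over the 21 peaks and 0.0011 over all peaks, and between single old and young samples the median of the 21 ran from 0.0072 to 0.15. On the values as deposited, without RLE scaling, the median was -0.18 over the 21 peaks and -0.27 over all peaks, so that the sign depended on the scaling while the median of the 21 peaks lay above that of all peaks in both. There, 6 of the 21 log2 fold changes were above 0, against 25.4% of all peaks.

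**Figure D3:**
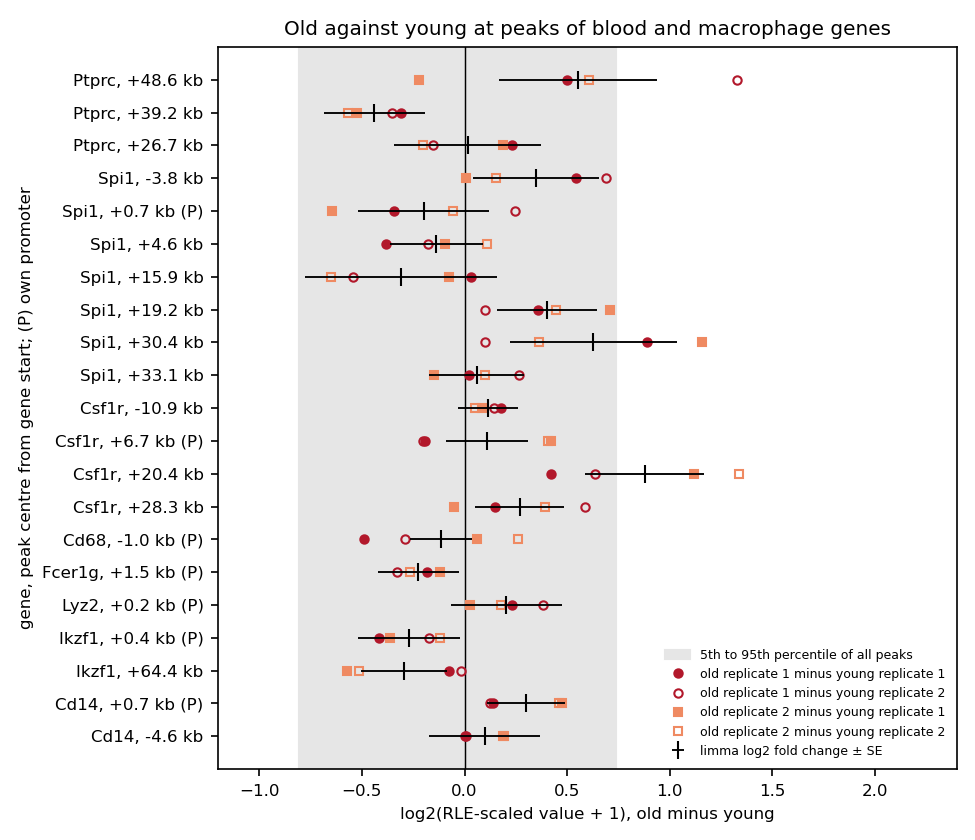
Old minus young on the log2(RLE-scaled value + 1) scale for the 21 peaks; black bars give the limma estimate with its standard error and the points the 4 single comparisons of 1 old with 1 young sample, and the grey band spans the 5th to 95th percentile of all peaks (-0.81 to 0.74). The Csf1r peak at 20.4 kb is the only estimate outside the band, at 0.88.

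The same count was made for related lists of blood genes, as a description. Of 19 further macrophage and monocyte genes, such as those of complement C1q and the fractalkine receptor, 7 (36.8%) had an own-promoter peak. In this list 6 genes had no peak at all in their window, against 21.2% of all protein-coding genes. Its most open promoters per kb were Mertk (52.8), a receptor for dying cells, and Trem2 (21.0), a partner of TYROBP. Of 12 genes shared by leukocytes, 5 (41.7%) had an own-promoter peak, led by Itgb2 (44.1 per kb), the β2 integrin subunit, and Arhgdib (21.1 per kb). The median log2 fold change was 0.011 over the 60 peaks of the macrophage list and 0.15 over the 25 peaks of the leukocyte list. In either list 0 peaks passed the threshold (limma), against 0.0563% of all peaks. At an unadjusted p under 0.05 there were 8 and 3 peaks, against 16.4% of all peaks.
Of 15 stromal genes, 14 (93.3%) had an own-promoter peak, and Lum was the exception. The share was 69.9% over all protein-coding genes. The 2 sort markers of the study's methods that mark stromal cells were among them: the Pdgfra peak (CD140a) was 15200 bp wide with deposited values between 290 and 427, and the Ly6a peak (Sca-1) was 8900 bp wide with deposited values between 113 and 144. Per kb, the most open stromal promoters were Twist1 (53.3), a mesenchymal transcription factor, and Col1a1 (27.4), a collagen gene. The least open were Eng (6.45), the gene of endoglin, and Lepr (8.52), the leptin receptor gene, above 0.623% and 5.61% of promoter peaks, and Ly6a was above 22.8%. The median position per kb was the 36.4th percentile of promoter peaks for the stromal and the 34.3rd for the blood and macrophage genes.
The own-promoter peaks of the blood and macrophage genes had a median width of 2400 bp, near that of all genes, and 1 of 7 (14.3%), that of Cd68, was wider than 5 kb. The other 6 were 700 to 4400 bp wide, with a median of 2200 bp. Stromal promoter peaks had a median width of 7200 bp, and 64.3% were wider than 5 kb, against a median of 2700 bp and 17.9% over the 15319 protein-coding genes with an own-promoter peak. Promoter peaks were 1500 bp wide in the median of the other macrophage genes and 1600 bp in that of the leukocyte genes, and 0 in either list was wider than 5 kb. Other blood lists were not all narrow. For haematopoietic transcription factors the median was 6350 bp, with 66.7% wider than 5 kb, and for osteoclast genes 2900 bp, with 28.6%. The median value per kb was 19.7 in the 7 blood and macrophage promoters, 20.6 in the stromal promoters and 31.8 over all genes. These are descriptions, with no test, and the width of a peak is set once for all samples.

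**Figure D4:**
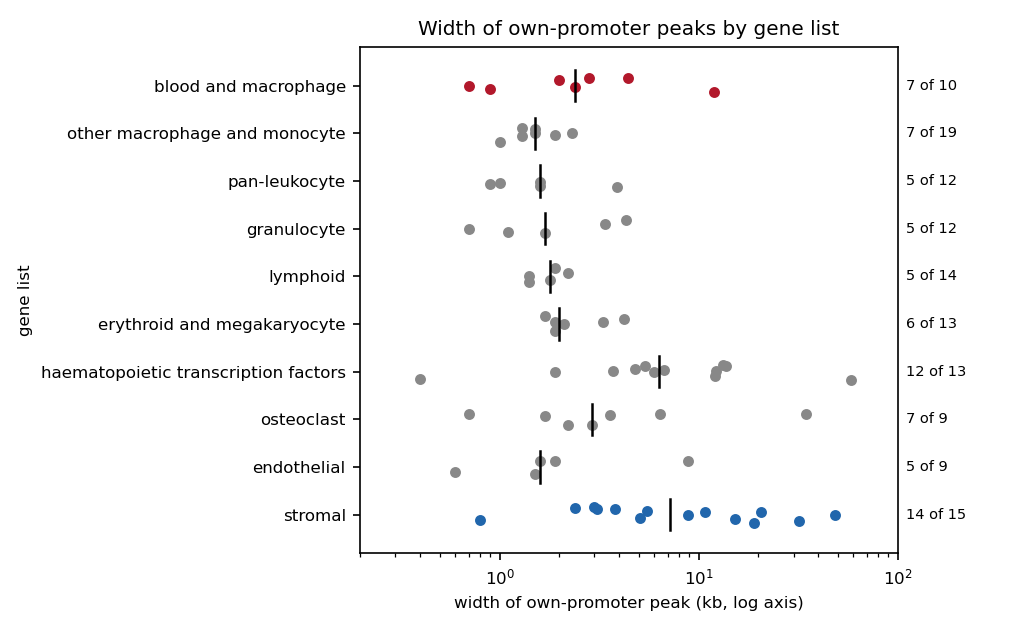
Width in kb, on a log axis, of the own-promoter peak of each gene by list, with a black line at the median and, at the right, how many genes of the list had such a peak. The 7 red points of the blood and macrophage genes run from 0.7 to 11.9 kb around a median of 2.4 kb, and the stromal points in blue have a median of 7.2 kb.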

How the data were processed

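ATAC-seq values of 2 old and 2 young MSC samples were used. The authors deposited 1 value per sample and peak, named RPKM and recorded here as a score, because 100% of values were whole multiples (tolerance 0.01) of 1 count per 10000000 of the library total and were not divided by peak width; counts were recovered from this step. The labels name Bowtie2, Picard and mm10. For the oxygen comparison, the methods give peaks from chromstaR, which works in genome bins that set the width of a peak. 0 other value columns were present.
Values were divided by RLE factors, as in the methods for that comparison, and log2(value + 1) was tested with limma 3.58.1 (R 4.3.3; trend and robust moderation, Benjamini-Hochberg adjustment over 117282 peaks, threshold 0.01), a scale that understates changes of weak peaks. The test was checked on simulated data in which every peak had the same dispersion between replicates. Such a check cannot show how the test behaves under the spread of these 4 samples. Summaries used Python 3.11.15, pandas 2.3.3 and scipy 1.17.1, and figures matplotlib 3.10.9. No count test was run, apart from limma-voom on the recovered counts as an alternative. Genes and starts came from GENCODE vM21, and promoter sequences from RefSeq. The genes and lists, and the rule for naming them (every peak in a window, other genes starting within 1 kb of one, and the 2 most open promoters per kb of each list), were chosen with earlier results of these data known. Pdgfra, Ly6a, Lum, Pdgfrb, Eng and Lepr were named outside this rule, Eng and Lepr as the least open stromal promoters. Clec7a was left out of the macrophage list because it is not protein-coding in vM21. Alternatives were other scalings, pseudocounts, windows, moderation, limma-voom, a filter on weak peaks, replicate blocks and leaving out each sample.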

Additional observations from a re-analysis of the deposited data

How the results depend on the processing

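The count of 0 of the 21 peaks held under the other scalings, pseudocounts, moderation, blocks, windows and filters tried. Leaving out 1 sample gave between 0 and 1: the Csf1r peak at 20.4 kb without old replicate 1, where 8.83% of all peaks were called, and the Cd68 peak without old replicate 2, where 1678 (1.43%) were. The lone sample of a group is then assumed to vary like the others. The count over all peaks (66) moved far more: 1385 on the values as deposited, 24 with a pseudocount of 0.1, 15 with a filter on weak peaks, 144 with limma-voom on recovered counts, 0 with plain moderation (18137 at an unadjusted p under 0.05), 1316 at a threshold of 0.05, and from 0 (without young replicate 2) to 10356 (without old replicate 1) when a sample was left out. With a replicate block it was 1269, and with the crossed replicate block, chosen after seeing the data, 3219. Deviations of same-numbered samples correlated at -0.099, so the numbers were not taken to pair them. The causes were not tested. The median over the 21 peaks (0.098) was 0.037 with the gene body alone or with 2 or 10 kb upstream, 0.15 relative to each peak's own chromosome and from 0.047 (without old replicate 2) to 0.097 when a sample was left out. On the values as deposited it was -0.18, and 7 log2 fold changes turned: Ptprc at 26.7 kb to -0.23, Spi1 at 33.1 kb to -0.22, Csf1r at -10.9, 6.7 and 28.3 kb to -0.17, -0.18 and -0.014, Lyz2 to -0.069 and Cd14 at -4.6 kb to -0.17. Quantile normalization gave -0.0054 for Ptprc at 26.7 kb. Leaving out a sample turned 6: Ptprc at 26.7 kb ran from -0.18 to 0.20, Spi1 at 0.7 kb from -0.50 to 0.093, at 4.6 kb from -0.27 to 0.0037 and at 33.1 kb from -0.065 to 0.18, Csf1r at 6.7 kb from -0.19 to 0.41, and Cd68 from -0.38 to 0.16. In the order old 1, old 2, young 1 and young 2, the summed share of the 21 peaks became 0.0165%, 0.0168%, 0.0158% and 0.0152% without peaks at the start of another gene, 0.0124%, 0.0130%, 0.0122% and 0.0116% without both peaks that also cover other genes (chosen after seeing the data), and 0.00865%, 0.0126%, 0.0126% and 0.0126% of the library total. With 4 to 26 counts, the narrow Spi1 and Ptprc peaks could show large differences alone.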

Other observations

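In the lists of other blood lineages, of osteoclasts and of endothelial cells, 0 peaks passed the threshold (limma), against 0.0563% of all peaks. Of 12 granulocyte genes, 5 had an own-promoter peak. The most open per kb were Camp (72.4), the gene of an antimicrobial peptide, and Mpo (43.1), the gene of myeloperoxidase, and the median log2 fold change over 17 peaks was -0.098. Of 14 lymphoid genes, 5 had such a peak, led by the B cell factor Pax5 (19.9 per kb) and the T cell receptor subunit Cd3d (19.2 per kb), with a median of -0.0095 over 23 peaks. Of 13 erythroid and megakaryocyte genes, 6 had one, led by the platelet integrin Itga2b (76.8 per kb) and the erythroid factor Klf1 (24.4 per kb), with a median of 0.13 over 10 peaks. The other 7 had no peak in their window, against 21.2% of all protein-coding genes.
Genes of haematopoietic transcription factors mostly had open promoters. Of 13, 12 (92.3%) had an own-promoter peak, with a median width of 6350 bp, and 8 of these 12 were wider than 5 kb. The widest, 58300 bp, also held the starts of other genes. Per kb their median position was the 31.6th percentile of promoter peaks. The most open per kb were Runx1 (35.8) and Cebpa (34.9), and the median log2 fold change over 76 peaks was -0.035. Among 9 osteoclast genes, 7 had an own-promoter peak, led by Oscar (44.3 per kb), whose peak also held the start of Ndufa3, and Ctsk (36.9 per kb), the gene of cathepsin K, with a median of 0.074 over 38 peaks. Of 9 endothelial genes 5 had one, led by the receptors Tek (23.9 per kb) and Kdr (18.0 per kb), with a median of 0.0042 over 46 peaks. At an unadjusted p under 0.05 there were 3 granulocyte, 3 lymphoid, 2 erythroid and megakaryocyte, 12 transcription factor, 4 osteoclast, 7 endothelial and 13 stromal peaks, against 16.4% of all peaks. Over the 46 stromal peaks, of which 0 passed the threshold (0.0563% of all peaks), the median was 0.17.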
